A study of Mus musculus with 32 samples.

Results

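The genes described here encode the subunits of the mitochondrial respiratory chain and of ATP synthase, with assembly factors and relatives that share their symbols. They were taken by name, as every array probe whose gene symbol begins with Nduf, Uqcr, Cox4 to Cox8 or Atp5, or is Sdha, Sdhb, Sdhc or Sdhd. The rule found 93 of the 35715 gene names on the array. Their probes, among 55681 in all, numbered 43 for complex I, 9 for complex I assembly factors, 6 for complex II, 15 for complex III, 14 for complex IV, 7 for tissue-specific isoforms of complex IV, 26 for ATP synthase and 7 for relatives by name. A probe was tested where all 4 arrays of some group read it well above background, which took out only Cox7b2 and Cox8c and left 91 genes. The filter hardly touched the members, since 124 probes were read well above background on each of the 32 arrays.

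RNA came from whole lungs of mouse pups raised in 21% O2 or in 85% O2, the standard way of causing a bronchopulmonary dysplasia-like arrest of alveolarisation. All pups carried a locked nucleic acid antimiR, which was directed against the microRNA miR-34a or was a scrambled control. Lungs were taken at post-natal day (P) 5 or P14, which gave 8 groups of 4 arrays: scrambled or antimiR-34a, in 21% O2 or 85% O2, at P5 or P14. No group was without an antimiR, so each 21% O2 group also carried the scrambled or the antimiR-34a oligonucleotide of the 85% O2 group it is set against. The labels give no strain or genotype for these pups. Each slide held the 8 arrays of 1 age and 1 oxygen level, so slide and oxygen level, and slide and age, cannot be told apart, whereas both antimiR groups of an age and oxygen level lay on 1 slide. On each slide the scrambled arrays were in row 1 and the antimiR-34a arrays in row 2, so antimiR and row cannot be told apart. Levels are log2 of the processed signal minus the array's 75th percentile, called relative log2 below: 0 is the brightness of a probe at the 75th percentile of its array. A probe was called at an adjusted p under 0.05 (limma, Benjamini-Hochberg over all probes tested). Nothing in the labels ties each array to a separate animal, so the p-values measure the spread between arrays. In whole-lung RNA, fewer cells of a type and less RNA per cell cannot be told apart.

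The respiratory chain passes electrons from NADH, through complex I (NADH dehydrogenase, the Nduf genes), or from succinate, through complex II (succinate dehydrogenase, the Sdh genes), to complex III (the cytochrome bc1 complex, the Uqcr genes) and on to oxygen at complex IV (cytochrome c oxidase, the Cox genes). Complexes I, III and IV pump protons, and ATP synthase (the Atp5 genes) uses the gradient to make ATP. Most subunits are encoded in the nucleus and are abundant in every tissue, while several complex IV subunits have a second gene that is used mainly in heart and skeletal muscle, in testis or in lung.

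The members' probes were bright. Mean relative log2 levels of the tested probes ran from -5.10 to 7.89 with a median of 4.55, and 119 of them (95.2%) were brighter than the 75th percentile of their array. Because bright probes did not move like dim ones, the members are set below beside all tested probes and beside the 13754 tested probes brighter than the 75th percentile. Of the probes, 24, with 14 of the 26 for ATP synthase among them, were placed by the array's annotation (mouse build mm9) on a chromosome other than the gene's own, as happens with processed pseudogenes, and 9 were not placed. Probes of that kind may share signal with a pseudogene copy.

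In 85% O2 the respiratory chain messages were higher as a group, at both ages, with the larger median at P14. At P5, with scrambled antimiR, 58 of the tested members were called higher and 10 lower in 85% O2 than in 21% O2 (46.4% and 8%). Over all 35981 probes tested at that age the shares were 20.3% higher and 23.4% lower, and over the bright probes 31.7% and 17.0%. The members' median log2 fold change was 0.19, beside -0.03 for all probes and 0.08 for the bright ones. At P14, 80 members were called higher and 5 lower (64% and 4%), beside 29.0% higher and 31.6% lower of all 38452 probes and 42.6% and 21.2% of the bright ones. The median was then 0.40, beside -0.05 for all probes and 0.15 for the bright ones. Cell type markers also moved in these comparisons: of 8 type I pneumocyte markers 7 were higher and 0 lower at P5 and 4 and 0 at P14, of 8 type II pneumocyte markers 1 was higher and 1 lower at P5 and 1 and 6 at P14, and of 7 proliferation genes 0 were higher and 7 lower at P5 and 0 and 2 at P14. Of 6 macrophage markers 4 were higher and 1 lower at P5 and 4 and 2 at P14. Their summed level was 20.5 to 23.4 in 21% O2 against 36.8 to 71.6 in 85% O2 at P14, whereas their mean relative log2 level went the other way, at 1.53 to 1.71 against 0.40 to 0.89. Red blood cell markers had 0 of 7 higher and 2 lower at P5 and 1 of 6 higher and 3 lower at P14, endothelial cell markers 2 and 3 of 8, then 3 and 3, and ciliated cell markers 0 and 0 of 8, then 1 and 0. Their part in the members' values was not tested.

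At P5 most probes of complexes I, II and IV were higher, and at P14 most of complexes I, III and IV and of ATP synthase. At P5 complex I had 27 of 43 probes higher and 1 lower, complex II had 5 of 6 higher and 0 lower, and complex IV had 8 of 14 higher and 1 lower. ATP synthase had 7 of 26 higher and 2 lower, and complex III had 6 of 15 higher and 1 lower. At P14 the counts were 29 of 43 for complex I, 11 of 15 for complex III, 13 of 14 for complex IV and 19 of 26 for ATP synthase, with 1, 0, 0 and 1 lower, and 3 of 6 with 0 lower for complex II. Complex IV was thus the complex with the largest share of higher probes at P14, with a median log2 fold change of 0.55. Of the 26 ATP synthase probes, 14 are placed on another chromosome. Atp5l alone has 6 of the 26, and 5 of these were called higher at P14. Of the 9 probes of complex I assembly factors, 4 were raised and 2 lowered at P5, against 2 and 0 at P14. The 5 tested probes for tissue-specific complex IV isoforms were divided at both ages, with 1 raised and 2 lowered at P5 against 2 raised and 1 lowered at P14.

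The same was seen when each array was summarised on its own. With scrambled antimiR at P14, the median of the complex IV probes, each centred on its mean over all arrays, lay between -0.33 and -0.12 on the 4 arrays of 21% O2 and between 0.23 and 0.38 on the 4 arrays of 85% O2. The complex I medians lay between -0.35 and -0.06 and between 0.22 and 0.37. At P5 the complex IV medians lay between -0.20 and -0.09 in 21% O2 and between 0.04 and 0.10 in 85% O2. The arrays of both oxygen levels were apart in each of these sets. The ATP synthase medians overlapped at P5, at -0.20 to -0.02 and -0.06 to 0.08, and were apart at P14, at -0.21 to -0.06 and 0.17 to 0.31.

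**Figure D1:**
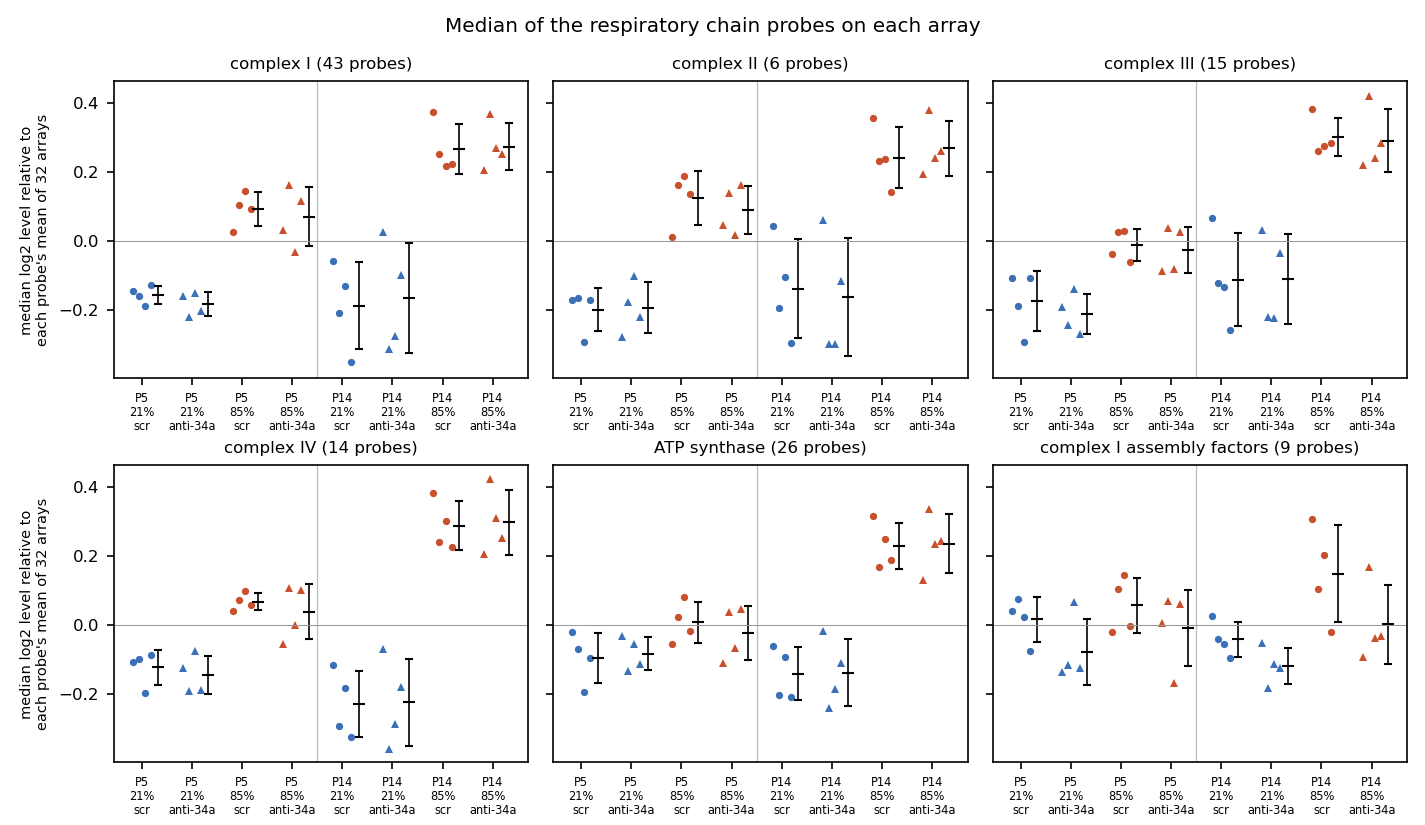
Median relative log2 level of the member probes of each complex on each of the 32 arrays, each probe centred on its mean over all arrays, by age, oxygen level and antimiR (1 point per array). At P14 the arrays of 85% O2 lie above those of 21% O2 for complexes I, II, III and IV and ATP synthase, and the scrambled (circles) and antimiR-34a (triangles) arrays of 1 oxygen level overlap. Bars give the mean and SD of a group.

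The rise depended on age. In the test of the oxygen effect at P14 minus that at P5, 57 members were called higher and 6 lower (45.6% and 4.8%), beside 21.5% and 18.6% of all probes and 29.0% and 18.0% of the bright probes. The balance kept its direction with fewer calls under other scalings, at 35 and 9 with quantile normalization and 33 and 2 with centring on each array's median. The median difference was 0.24 for the members, 0.02 for all probes and 0.08 for the bright ones. By complex the median difference was 0.18 in complex I, 0.34 in complex III, 0.37 in complex IV and 0.28 in ATP synthase.

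**Figure D2:**
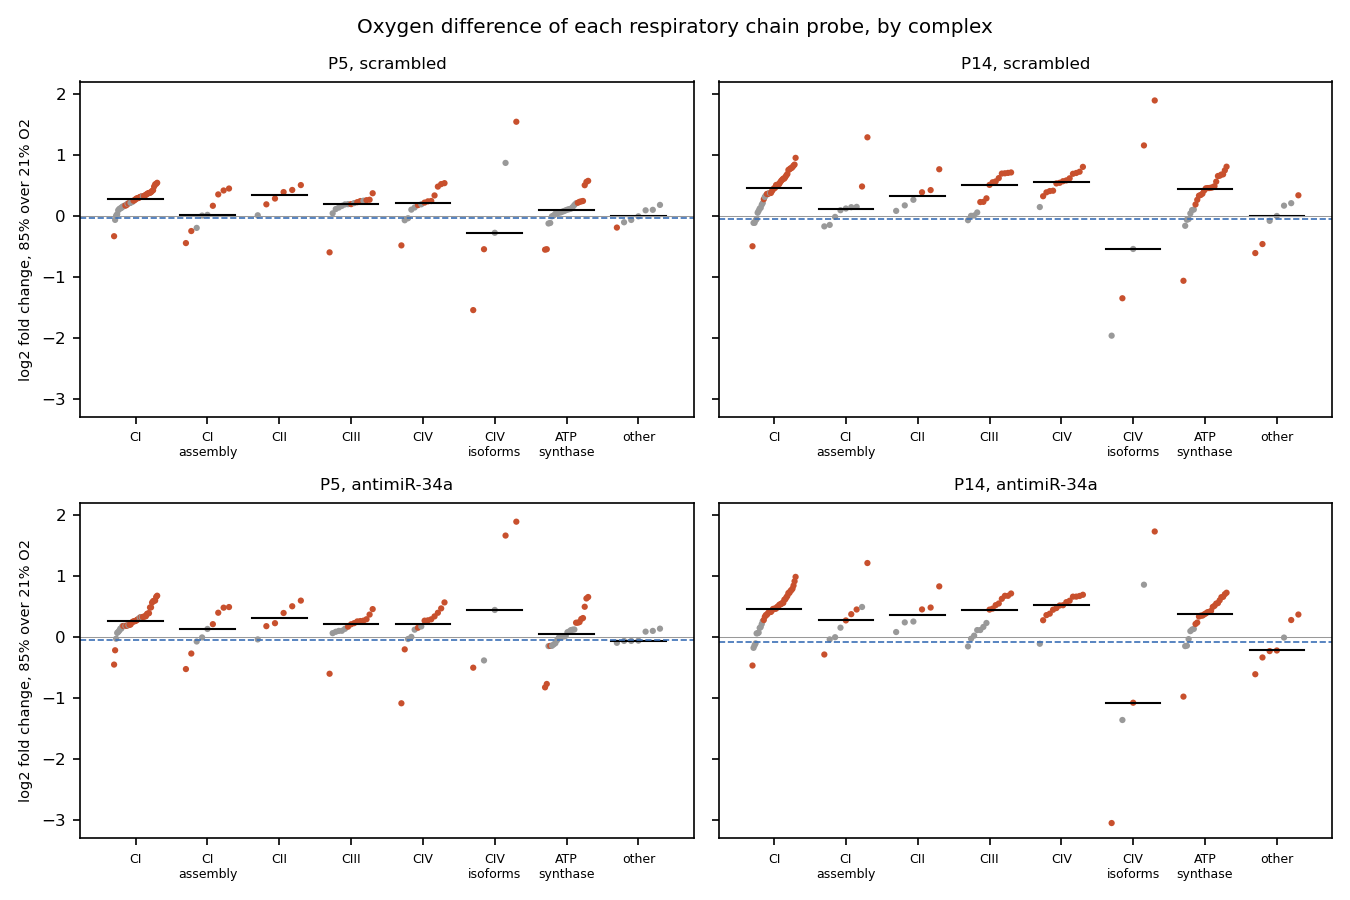
Log2 fold change of each tested member probe in 85% O2 against 21% O2 with scrambled antimiR and with antimiR-34a, by complex, at P5 and at P14 (1 point per probe, called probes in red, black lines at the medians, dashed line at the median of all tested probes). Most complex IV and ATP synthase probes lie higher at P14 than at P5, with complex IV medians of 0.20 and 0.55 with scrambled antimiR.

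Complex I carries its chemistry in a flavin-binding and iron-sulfur core to which many accessory subunits are attached. The flavoprotein Ndufv1 was 0.13 ± 0.07 (SE, n = 4 against 4) log2 higher in 85% O2 at P5 (limma adjusted p = 0.16) and 0.36 ± 0.14 higher at P14 (adjusted p = 0.035). The core subunit Ndufs1 rose by 0.31 ± 0.07 at P5 (limma adjusted p = 0.0019) and missed the threshold with the same value at P14 (0.31 ± 0.13, adjusted p = 0.05). Both accessory subunits picked by role had larger values than these at P14: Ndufa9 rose by 0.54 ± 0.08 and 0.80 ± 0.11 (limma adjusted p = 8e-05 and 4.2e-05) and Ndufb8 by 0.20 ± 0.06 and 0.55 ± 0.12 (adjusted p = 0.014 and 0.0017). At P14 the accessory subunits Ndufa11 and Ndufa2 and the iron-sulfur subunit Ndufs7 were also among the large ones, at 0.84, 0.82 and 0.78.

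Ndufb7, an accessory subunit of the membrane arm, was called at P14 and not at P5 with scrambled antimiR. Its relative log2 levels at P5 were 5.38, 5.41, 5.37 and 5.30 in 21% O2 and 5.46, 5.34, 5.37 and 5.38 in 85% O2. At P14 they were 5.19, 5.08, 5.13 and 5.03 in 21% O2 and 5.82, 5.77, 5.85 and 5.99 in 85% O2. The groups overlapped at P5 (0.02 ± 0.07, limma adjusted p = 0.81) and were well apart at P14 (0.75 ± 0.07, a 1.68-fold rise, adjusted p = 5.9e-07), and the oxygen effects of both ages differed by 0.73 ± 0.09 (adjusted p = 1.3e-06). With antimiR-34a it rose at both ages, by 0.18 and 0.72 (limma adjusted p = 0.047 and 7.1e-07). Ndufab1, the mitochondrial acyl carrier protein and a subunit of complex I, was read by a dimmer probe at -0.09, -0.11, -0.12 and -0.07 in 21% O2 and 0.26, 0.22, 0.31 and 0.22 in 85% O2 at P5. At P14 its levels were -0.53, -0.55, -0.50 and -0.71 against 0.35, 0.46, 0.35 and 0.34, a 1.93-fold rise (0.95 ± 0.13, limma adjusted p = 3.4e-05). The arrays of both oxygen levels did not overlap at either age. The iron-sulfur core subunit Ndufs8 had levels of 1.94, 1.86, 1.88 and 1.99 in 21% O2 and 1.94, 2.55, 2.50 and 2.58 in 85% O2 at P5. Its call there (0.48 ± 0.16, limma adjusted p = 0.03) thus came with 1 array of 85% O2 inside the range of 21% O2, and at P14 it was not called (0.08 ± 0.13, adjusted p = 0.63).

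Ndufaf4, which helps to assemble complex I and is not part of the finished enzyme, rose most among the Nduf genes at P14. Its relative log2 levels at P5 were 1.44, 1.45, 1.57 and 1.46 in 21% O2 and 2.00, 1.95, 1.99 and 1.76 in 85% O2. The P14 values were 1.13, 1.20, 1.10 and 1.26 against 2.52, 2.39, 2.32 and 2.59, a 2.44-fold rise. The groups did not overlap at either age, with log2 fold changes of 0.44 ± 0.07 (limma adjusted p = 0.0003) and 1.28 ± 0.10 (adjusted p = 1.8e-07). These values are from the brighter of the gene's probes (chr4:24829194-24829253, mm9), and the second (chr4:24830284-24830343) was called at P5 (0.41) and not at P14 (0.14). Other assembly factors went down at P5: Ndufaf5 fell by 0.45 ± 0.10 (limma adjusted p = 0.0033) and Ndufaf6 fell by 0.25 ± 0.08 (adjusted p = 0.016), calls that were lost with centring on each array's median, and neither was called at P14 (-0.15 and -0.18).

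Complex II has only nuclear-encoded subunits, of which Sdha carries the flavin, Sdhb the iron-sulfur clusters, and Sdhc and Sdhd the membrane anchor. At P5 Sdhb levels were 5.11, 5.03, 4.86 and 5.04 in 21% O2 and 5.23, 5.44, 5.51 and 5.40 in 85% O2, with no overlap (0.39 ± 0.09, limma adjusted p = 0.0032). By P14 they were 5.54, 5.20, 5.28 and 5.09 against 5.63, 5.45, 5.55 and 5.51, with overlap and no call (0.26 ± 0.12, adjusted p = 0.081). Sdha was called at P5 (0.19 ± 0.07, limma adjusted p = 0.037) and not at P14 (0.17, adjusted p = 0.18). The anchor subunits were called at both ages: Sdhc rose by 0.42 ± 0.06 and 0.76 ± 0.09 (limma adjusted p = 6.4e-05 and 1.3e-05) and Sdhd by 0.28 ± 0.06 and 0.42 ± 0.10 (adjusted p = 0.002 at both). The second probe of Sdhc was not called at P5 (0.01) and rose less at P14 (0.38, limma adjusted p = 0.0044).

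Complex III was mixed at P5 and had 11 of 15 probes higher at P14, with the Rieske protein and the core protein Uqcrc1 not called at either age with scrambled antimiR. The Rieske iron-sulfur protein Uqcrfs1 was not called at P5 (0.19 ± 0.08, limma adjusted p = 0.07) or at P14 (0.00 ± 0.12, adjusted p = 0.99). Core protein Uqcrc1 was not called at either age with scrambled antimiR (0.24 ± 0.13 and 0.05 ± 0.15), but with antimiR-34a it rose at P5 (0.37, limma adjusted p = 0.028; 0.17 at P14, not called). Core protein Uqcrc2 rose by 0.19 ± 0.06 and 0.28 ± 0.10 (limma adjusted p = 0.016 and 0.023). Uqcrb was not called at P5 (0.16 ± 0.07, adjusted p = 0.064) and rose at P14 (0.22 ± 0.08, limma adjusted p = 0.021). Uqcr11, the smallest subunit, had relative log2 levels of 5.25, 5.14, 5.08 and 5.29 in 21% O2 and 5.42, 5.41, 5.44 and 5.45 in 85% O2 at P5. At P14 it had 5.55, 5.39, 5.37 and 5.31 against 5.98, 5.96, 6.09 and 6.05. No array of 21% O2 reached those of 85% O2 at either age, and the rise was larger at P14 (0.62 ± 0.08 against 0.24 ± 0.06, a difference of 0.38 ± 0.09 with limma adjusted p = 0.0022).

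Complex IV is assembled round mitochondrially encoded catalytic subunits, and the Cox4 to Cox8 genes encode the nuclear subunits that stabilise and tune it. Cox4i1, the ubiquitous isoform of subunit IV (probe at chr8:123197924-123197983, mm9), was one of the brightest members. At P5 its levels were 6.43, 6.46, 6.40 and 6.52 in 21% O2 and 6.52, 6.56, 6.55 and 6.58 in 85% O2, which was not called (0.10 ± 0.05, limma adjusted p = 0.14). At P14 they were 6.33, 6.16, 6.18 and 6.07 against 6.76, 6.68, 6.69 and 6.73, without overlap and 1.44-fold higher (0.53 ± 0.07, limma adjusted p = 1.7e-05). The other ubiquitous subunits also rose at P14, and most of them rose at P5 as well. At P14 Cox5a rose by 0.70, Cox8a by 0.69, Cox7a2 by 0.58, Cox6b1 by 0.56, Cox6a1 by 0.54 and Cox5b by 0.38 (limma adjusted p between 5.5e-07 and 0.0076). At P5 the values were 0.33, 0.24, 0.17, 0.52, 0.21 and -0.04, of which that of Cox5b was not called. The difference between ages was called for Cox4i1, Cox5a, Cox5b, Cox6a1, Cox7a2 and Cox8a (0.43, 0.37, 0.42, 0.32, 0.41 and 0.45; that of Cox6a1 turned to -0.059 with quantile normalization), and for Cox6b1 it was 0.05 (limma adjusted p = 0.80).

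The lung isoform of subunit IV went the other way from the ubiquitous one. Cox4i2 (probe at chr2:152590711-152590770, mm9), which replaces Cox4i1 in part of the complexes in lung and smooth muscle and is known for its part in oxygen sensing by pulmonary vessels, had levels of 1.97, 2.10, 2.31 and 2.19 in 21% O2 and 1.61, 1.61, 1.42 and 1.71 in 85% O2 at P5. The levels at P14 were 2.28, 2.28, 2.23 and 2.00 against 0.94, 0.71, 0.94 and 0.79. The groups were apart at both ages, the fall was 1.47-fold at P5 (log2 -0.55 ± 0.10, limma adjusted p = 0.00038) and 2.56-fold at P14 (-1.36 ± 0.11, adjusted p = 4.3e-07), and the ages differed by -0.80 ± 0.15 (adjusted p = 0.00015). With antimiR-34a the fall was -0.50 at P5 and -1.08 at P14 (limma adjusted p = 0.0007 and 2.8e-06). Ndufa4l2, a relative of the subunit Ndufa4 and a known target of hypoxia-inducible factor, had levels of 3.57, 3.56, 3.57 and 3.40 in 21% O2 and 3.20, 3.01, 3.09 and 2.93 in 85% O2 at P14. It was lower in 85% O2 at P14 on every array (-0.47 ± 0.10, limma adjusted p = 0.0012), a call lost with centring on each array's median, and was not called at P5 (-0.07).

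Cox6b2, the testis isoform of subunit VIb, had the largest rise of all members at both ages with scrambled antimiR. Its relative log2 levels at P5 were 1.40, 1.50, 1.56 and 1.55 in 21% O2 and 3.10, 2.86, 2.98 and 3.23 in 85% O2. At P14 the arrays gave 1.07, 1.08, 1.15 and 0.85 against 2.96, 2.95, 2.81 and 2.98. The oxygen levels were far apart, with a 2.91-fold rise at P5 (1.54 ± 0.09, limma adjusted p = 1.5e-08) and a 3.70-fold rise at P14 (1.89 ± 0.08, adjusted p = 4.2e-10). With antimiR-34a the rise was 1.67 and 1.73 (limma adjusted p = 6e-09 and 9.8e-10). The ubiquitous isoform of the same subunit, Cox6b1, rose by 0.52 ± 0.09 and 0.56 ± 0.10 (adjusted p = 0.00029 and 0.00027), and as the isoforms are read by different probes (chr7:4703488-4703547 for Cox6b2 and chr7:31409575-31409634 for Cox6b1, mm9) their levels cannot be set against each other.

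**Figure D3:**
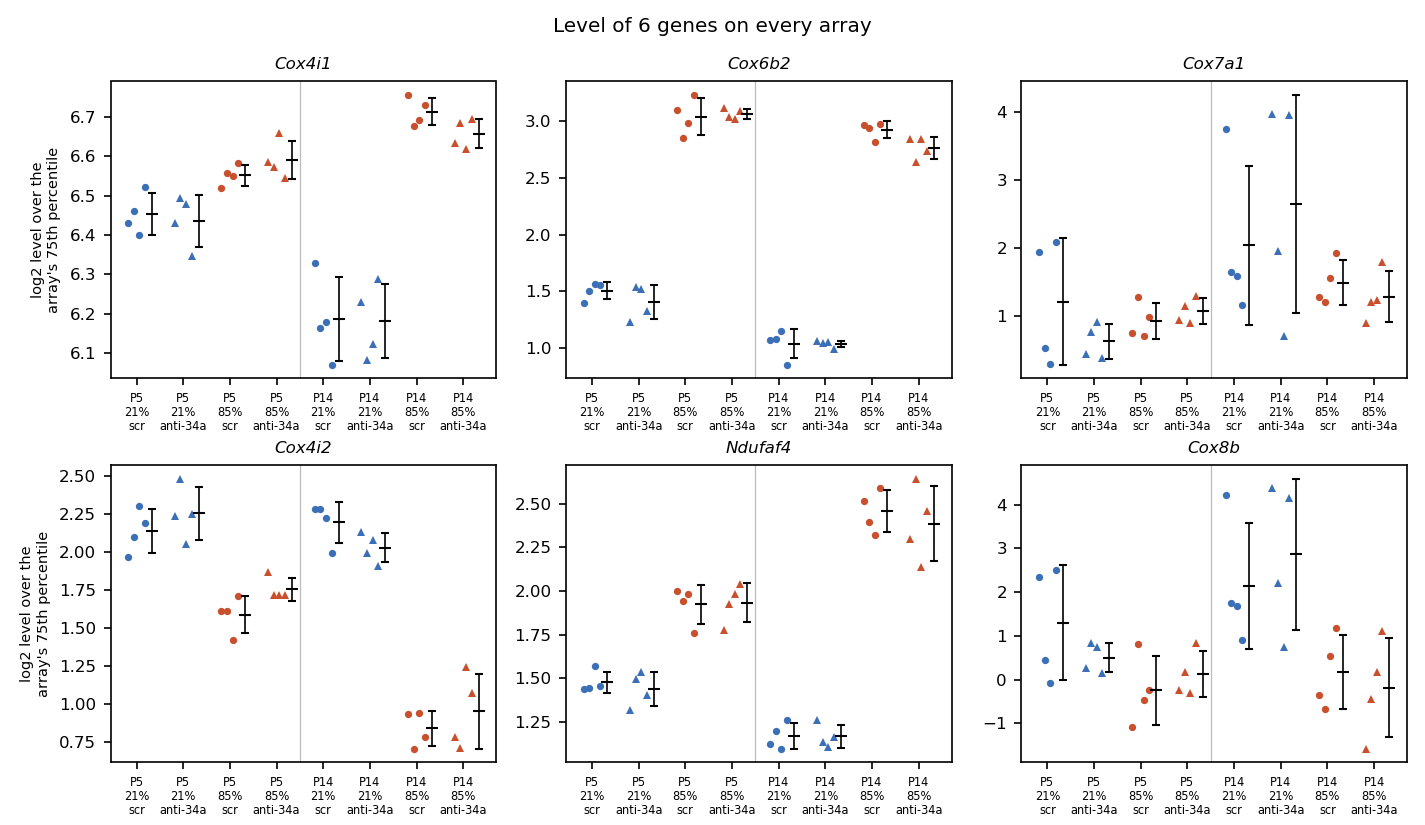
Relative log2 level of Cox4i1, Cox6b2, Cox7a1, Cox4i2, Ndufaf4 and Cox8b on every array (points) with the mean and SD of each group of 4 arrays, by age, oxygen level and antimiR. Cox6b2 and Ndufaf4 are higher and Cox4i2 lower in 85% O2 on all arrays at both ages, while Cox7a1 and Cox8b vary widely within some groups.

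The 250 bases before the start of the 3 genes below are shown because Cox6b2 and Ndufaf4 had the largest rises at P14 and Cox6b1 is the paralogue of Cox6b2 that rose less. They are from RefSeq (GRCm38.p6) and are written 5′ to 3′ on the gene's strand, with a match to a searched motif in capitals. Cox6b1 is at chr7:30626115-30626364 (minus strand), Cox6b2 at chr7:4753095-4753344 (minus strand) and Ndufaf4 at chr4:24897833-24898082 (plus strand).
Cox6b1: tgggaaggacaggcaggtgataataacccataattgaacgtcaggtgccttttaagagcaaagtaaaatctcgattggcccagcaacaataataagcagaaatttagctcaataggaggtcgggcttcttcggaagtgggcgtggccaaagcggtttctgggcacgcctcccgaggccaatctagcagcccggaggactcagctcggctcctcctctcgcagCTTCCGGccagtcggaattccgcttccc
Cox6b2: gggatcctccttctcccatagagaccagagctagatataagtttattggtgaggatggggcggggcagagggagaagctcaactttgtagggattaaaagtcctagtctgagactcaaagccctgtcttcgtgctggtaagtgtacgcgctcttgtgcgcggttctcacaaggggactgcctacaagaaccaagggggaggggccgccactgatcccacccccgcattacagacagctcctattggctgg
Ndufaf4: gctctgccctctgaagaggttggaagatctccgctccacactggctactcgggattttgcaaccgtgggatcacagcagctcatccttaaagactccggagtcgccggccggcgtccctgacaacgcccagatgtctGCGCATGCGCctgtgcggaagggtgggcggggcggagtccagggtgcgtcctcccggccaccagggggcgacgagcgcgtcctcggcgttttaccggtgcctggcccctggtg
Both motifs searched are known from promoters of nuclear genes for mitochondrial proteins. The NRF-1 core GCATGCGC, or its reverse GCGCATGC, was in the windows of 9 of the 76 members that have one (11.8%) and of 626 of 27025 genes in all (2.32%). The ETS core CCGGAAG, or its reverse CTTCCGG, the kind of site bound by Gabpa (NRF-2), was in 12 of the 76 (15.8%) and in 1906 in all (7.05%). Ndufaf4 has overlapping NRF-1 cores of both strands, Cox6b1 has 1 ETS core, and Cox6b2 holds neither string in this window. The other members with the NRF-1 core were Sdhb, Ndufa6, Ndufa8, Ndufa11, Atp5g2, Atp5k, Cox6a1 and Atp5l. The other members with the ETS core were Ndufb6, Ndufb7, Ndufs3, Ndufaf1, Sdhd, Uqcr11, Uqcrh, Atp5e, Atp5h, Cox6a1 and Atp5l, so that Cox6a1 and Atp5l held both. A match is a string of letters and was not tested for binding.

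The muscle isoforms of complex IV varied widely between arrays of some groups, and their values are given with those of the muscle markers. Cox6a2, Cox7a1 and Cox8b are the heart and skeletal muscle forms of Cox6a1, Cox7a2 and Cox8a, and Cox7a1 and Cox8b are also used in brown fat. Cox8b levels at P5 were 2.34, 0.46, -0.09 and 2.51 in 21% O2 and -1.08, 0.81, -0.47 and -0.23 in 85% O2. By P14 they were 4.22, 1.74, 1.70 and 0.90 against -0.35, -0.67, 0.54 and 1.17. The spread within each group was over 1 log2 unit, and the groups overlapped at both ages (P5 -1.55 ± 0.54, limma adjusted p = 0.031; P14 -1.97 ± 0.87, adjusted p = 0.063).

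Cox7a1 had levels of 1.94, 0.53, 0.30 and 2.10 in 21% O2 and 0.75, 1.28, 0.72 and 0.99 in 85% O2 at P5, and 3.76, 1.65, 1.60 and 1.16 against 1.28, 1.21, 1.56 and 1.93 at P14. It was called at neither age (-0.28 ± 0.33 and -0.55 ± 0.67, limma adjusted p = 0.51 and 0.5). Cox6a2 (probe at chr7:135349160-135349219, mm9) had levels of 3.31, 1.49, 0.80 and 3.58 in 21% O2 and 2.14, 3.95, 3.39 and 3.16 in 85% O2 at P5, and of 2.82, 2.27, 2.46 and 1.83 against 3.31, 3.00, 3.53 and 4.14 at P14. The groups overlapped at P5 (0.86 ± 0.54, limma adjusted p = 0.21) and not at P14 (1.15 ± 0.44, adjusted p = 0.037).

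The P5, 21% O2, scrambled replicate 4 array held skeletal muscle RNA. The mean relative log2 level of 13 skeletal muscle markers was 1.73 on it and between -3.65 and -2.70 on the other 3 arrays of its group. Their summed linear level was 208 on that array, and the lowest in the group was 4.55. In 85% O2 at P5 the sum was between 2.26 and 3.77. All 8 heart muscle markers were well above background on every array, and their summed level was 44.8 to 219 in 21% O2 against 12.5 to 58.6 in 85% O2 at P5, and 89.2 to 170 against 26.2 to 79.6 at P14. At P5 in 21% O2, replicates 1 and 4, which were high in all 3 isoforms, had the highest heart marker sums (219 and 187, against 66.4 and 44.8). At P14 the white fat cell markers were also uneven, with a sum of 3.09 to 23.8 in 21% O2 and 0.084 to 0.109 in 85% O2, where Adipoq, Cfd and Car3 were well above background on 0 of 4 arrays, and the brown fat cell markers had a mean relative log2 level of -3.72 to -0.45 against -3.92 to -3.45. The array of 21% O2 with the highest level of both fat lists, replicate 1, was also the highest in Cox7a1 and Cox8b. The part of these cells in the values of Cox6a2, Cox7a1 and Cox8b was not tested.

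Without P5, 21% O2, scrambled replicate 4, 50 members were called higher and 9 lower in 85% O2 at P5, with the median unchanged at 0.19, so the rise of the chain as a whole was as large without it. The muscle isoforms moved: Cox8b was then at -1.15 and no longer called (limma adjusted p = 0.10), Cox7a1 at 0.01 (adjusted p = 0.98) and Cox6a2 at 1.29 (adjusted p = 0.063). Cox8b lost its P5 call on leaving out any of 5 of the 8 arrays, and Cox6a2 its P14 call on leaving out any of 6 of the 8. With the 4 P14 arrays that had the most fat cell RNA left out, 88 members were called at P14 in place of 85, Cox6a2 rose by 1.31 (limma adjusted p = 0.0097) and Cox8b was at -1.28 (adjusted p = 0.075).

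Set against the heart markers of the same array, a description chosen after the values were seen, the isoforms differed. The relative log2 level of Cox6a2 minus the heart markers' mean was -0.46 to 1.11 (median 0.24) on the 16 arrays of 21% O2 and 1.17 to 3.76 (median 3.07) on the 16 arrays of 85% O2, with no overlap. Of the 8 heart markers, 5 were called lower and 0 higher in 85% O2 with scrambled antimiR at P5 and 4 and 0 at P14, and the same subtraction raised other genes too: the median went from -0.71 to 2.53 for Cox6b2, from -0.39 to 0.89 for Cox7a1 and from -0.45 to -0.14 for Cox8b, with overlap for each of these.

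**Figure D4:**
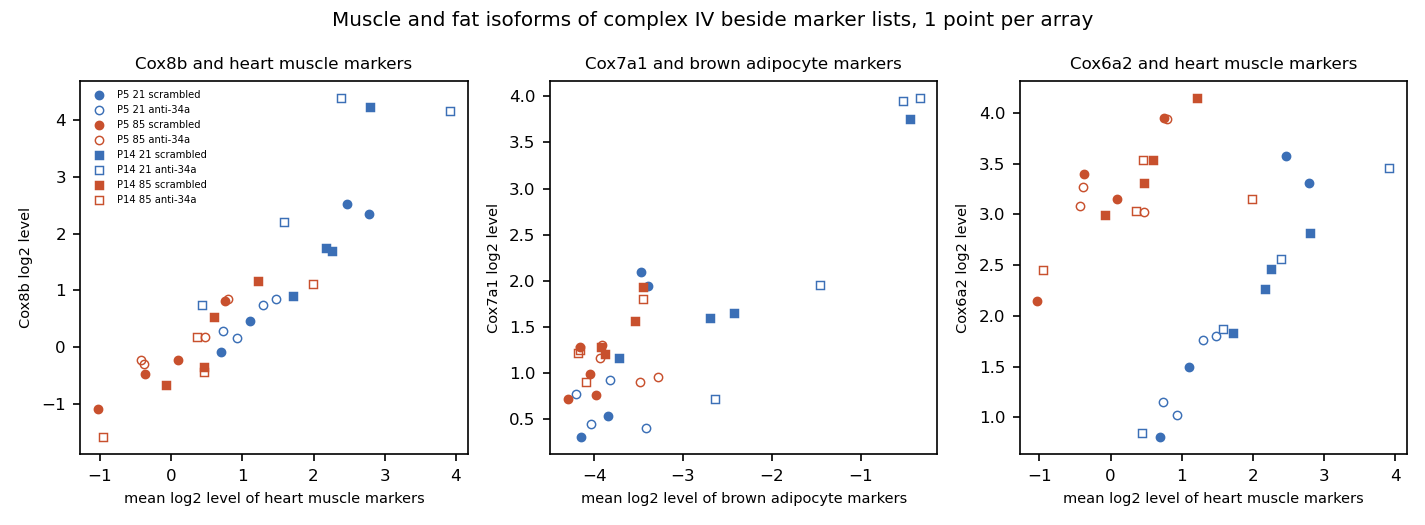
Relative log2 level of Cox8b and Cox6a2 against the mean relative log2 level of the heart muscle markers, and of Cox7a1 against that of the brown adipocyte markers, on each of the 32 arrays (1 point per array; blue 21% O2, red 85% O2, circles P5, squares P14). Cox8b lies higher on arrays with more heart marker signal, the 3 highest arrays for Cox7a1 are the 3 with the most brown adipocyte signal, and Cox6a2 lies higher in 85% O2 at a given heart marker level.

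ATP synthase has a catalytic head (Atp5a1 and Atp5b), a central stalk (Atp5c1 and Atp5d among others) and a membrane rotor of c subunits, whose 3 genes Atp5g1, Atp5g2 and Atp5g3 encode the same mature protein. The head subunits were not called at either age with scrambled antimiR, with Atp5a1 at 0.17 and 0.04 and Atp5b at 0.20 and 0.10. With antimiR-34a, Atp5b rose at P5 (0.30, limma adjusted p = 0.007) and was not called at P14 (0.10), and Atp5a1 was not called at either age (0.09 and 0.12). The c subunit genes were not called at P5 (0.07, 0.00 and 0.11) and all rose at P14 (0.68, 0.46 and 0.41, limma adjusted p between 3.8e-05 and 0.00046), and the difference between ages was called for each (0.60, 0.45 and 0.31). Atp5k, which encodes the small subunit e, had levels of 5.11, 5.06, 4.99 and 5.12 in 21% O2 and 5.10, 5.03, 5.18 and 5.10 in 85% O2 at P5. At P14 it had 4.92, 4.77, 4.83 and 4.67 against 5.62, 5.37, 5.60 and 5.57, with overlap at P5 and a 1.67-fold rise without overlap at P14 (0.74 ± 0.09, limma adjusted p = 7.4e-06). Both Atp5k probes are placed on chromosome 8, while the gene lies on chromosome 5. Neither Atp5g2 probe is placed on the gene's chromosome 15. The values of these genes may thus share signal with a pseudogene copy.

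In the stalk, Atp5d rose at both ages. It had levels of 3.89, 3.88, 3.76 and 4.07 in 21% O2 and 4.12, 4.63, 4.54 and 4.58 in 85% O2 at P5, and 4.06, 3.94, 4.02 and 3.70 against 4.70, 4.60, 4.43 and 4.60 at P14, with no overlap at either age (0.57 ± 0.11 and 0.65 ± 0.11, limma adjusted p = 0.00078 and 0.00012). Atp5c1 had levels of 4.75, 4.72, 4.54 and 4.58 against 4.94, 5.28, 5.32 and 5.26 at P5 (0.55 ± 0.10, limma adjusted p = 0.00068), and was not called at P14 (0.09 ± 0.08, adjusted p = 0.33). The gene's dimmer probe gave -0.56 at P5 and -1.07 at P14 (the latter with limma adjusted p = 1.3e-06). Both Atp5c1 probes are placed on chromosome 13, while the gene lies on chromosome 2, and the pseudogene Atp5c1-ps has its own probe, which was lower in 85% O2 at P14 (-0.61 ± 0.13, adjusted p = 0.00084). The direction for Atp5c1 is therefore uncertain.

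Of 25 genes with several tested probes, all probes of a gene had the same call for 14 at P5 and 15 at P14, some were called and some not for 7 and 10, and the calls went in opposite directions for 4 and 0. The 4 were Atp5c1, Atp5l (0.24 and -0.55), Ndufv3 (0.25 and -0.34) and Cox7c (0.48 and -0.49). For Atp5l and Cox7c, only a single probe is placed on the gene's own chromosome. With antimiR-34a at P5 that probe was lower in 85% O2. Its mean relative log2 level was 2.89 against 3.72 in 21% O2 for Atp5l, and -4.36 against -3.28 for Cox7c. The direction for these genes is therefore uncertain at P5.

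The pups that received antimiR-34a gave a second set of arrays for the oxygen comparison, with no array in common with the first. Both sets lay on the same slides, so here too slide and oxygen level cannot be told apart. At P5, 66 members were called higher and 11 lower in 85% O2 (all probes 19.7% and 26.3%), and 51 of those higher and 8 of those lower were also called so with scrambled antimiR. At P14, 82 were higher and 9 lower (all probes 29.2% and 35.9%), of which 76 and 5 were shared. The number called in opposite directions was 0 at both ages by limma. The medians were 0.20 and 0.41, beside -0.05 and -0.08 for all probes. Besides Cox6b2 and Cox4i2, Ndufaf4 rose by 1.22 at P14 (limma adjusted p = 2.7e-07), Ndufab1 by 0.99 at P14 (adjusted p = 1.9e-05) and Ndufs8 by 0.68 at P5 (adjusted p = 0.0039). The muscle isoforms again differed between sets: Cox6a2 was at 1.89 at P5 (adjusted p = 0.01) and 0.86 at P14 (adjusted p = 0.10), and Cox8b was called lower at P14 (-3.05, adjusted p = 0.0068) and not at P5 (-0.38). The P14 levels of Cox8b overlapped, at 0.74 to 4.38 in 21% O2 and -1.58 to 1.10 in 85% O2. On these arrays the summed white fat cell markers were at 2.09 to 39.3 against 0.118 to 2.98 and the brown fat cell markers' mean at -2.64 to -0.33 against -4.18 to -3.45. The summed heart muscle markers were at 33.3 to 286 against 14.1 to 108. The part of these cells in the result was not tested.

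By limma, the antimiR against miR-34a moved no member past the threshold. In 21% O2 at P5 and P14 and in 85% O2 at P5 and P14, 0 members were called (limma), beside 0.128%, 0%, 0.0917% and 2.49% of all probes tested in the same 4 comparisons. The methods' t-test also called 0, whereas array weights called 6, all lower, in 21% O2 at P14. The members with an unadjusted p under 0.05 numbered 8, 0, 6 and 5, and the lowest adjusted p of a member was 0.20, 0.47, 0.29 and 0.16. Log2 fold changes lay within ±0.25 (1.19-fold) for 116, 122, 123 and 122 of the tested members, and their medians were -0.03, -0.00, -0.04 and -0.01. The members with the smallest p were Ndufs4 (0.15), Ndufb5 (-0.20) and Ndufaf3 (-0.23) in 21% O2 at P5, and Atp5g2 (-0.13), Ndufab1 (0.20) and Cox4i2 (-0.17) in 21% O2 at P14. In 85% O2 they were Sdhc (0.16), Ndufs7 (0.12) and Ndufb7 (0.18) at P5 and Atp5s (-0.25), Cox7a2l (-0.20) and Cox8a (-0.14) at P14.

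The largest values of the antimiR at P5 in 21% O2 were those of the muscle isoforms, Cox6a2 (-0.86), Cox8b (-0.80) and Cox7a1 (-0.58), none of which was called. Without scrambled replicate 4, the array with skeletal muscle RNA, they were -0.44, -0.40 and -0.29. At P14 in 21% O2 the widest values were again of Cox8b (0.73) and Cox7a1 (0.61), each with an SE above its value or close to it (0.87 and 0.67). The test of the antimiR effect in 85% O2 minus that in 21% O2 called 0 members at either age, beside 0.0556% and 0.0702% of all probes, and the members with the smallest p were Ndufs7 at P5 (0.19, limma adjusted p = 0.32) and Cox7a2l at P14 (-0.21, adjusted p = 0.40).

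**Figure D5:**
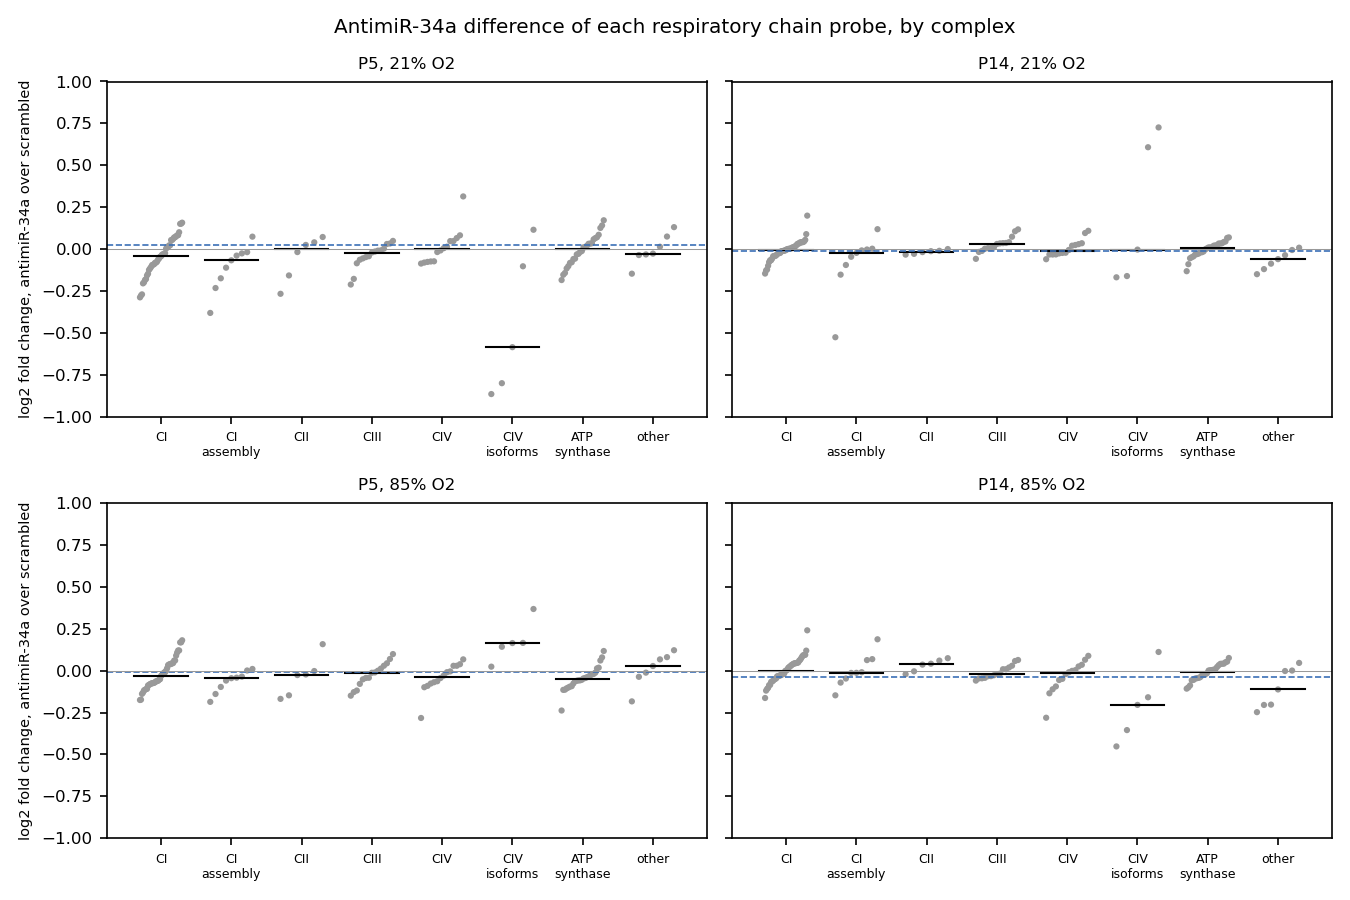
Log2 fold change of each tested member probe with antimiR-34a against scrambled antimiR, by complex, in 21% and 85% O2 at P5 and P14 (1 point per probe). Black lines give the medians and the dashed line the median of all tested probes. Nearly all points lie within 0.25 of 0, and in 21% O2 the points farthest from 0 are tissue isoforms of complex IV.

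Between P5 and P14 the members were divided in 21% O2, and more of them were higher than lower in 85% O2. In 21% O2 with scrambled antimiR, 23 members were higher and 31 lower at P14 (all probes 28.7% and 22.4%), with a median of -0.02 beside 0.06 for all probes. The balance there rested on the scaling, with 18 higher and 39 lower under quantile normalization and 4 and 39 under centring on each array's median. It also rested on single arrays: without P14, 21% O2, scrambled replicate 1, 15 members were higher and 34 lower, and the median lay between -0.07 and 0.03 as each array was left out. Complex IV had 0 of 14 higher and 5 lower, among them Cox4i1 (-0.27, limma adjusted p = 0.00022), and complex III had 5 of 15 higher and 2 lower. Only called members whose groups did not overlap were ranked. Among these the largest rises were of Ndufs8 (0.69), Ndufb2 (0.61) and the assembly factor Ndufaf3 (0.58). The largest falls were of Ndufab1 (-0.47), Cox6b2 (-0.47) and Ndufa11 (-0.39), with limma adjusted p between 2.4e-05 and 0.0086 over the named genes. In 85% O2, 57 members were higher and 5 lower at P14 (all probes 25.3% and 16.4%), with a median of 0.16 beside 0.08. Complex III had 11 of 15 higher, complex IV 8 of 14 and ATP synthase 14 of 26, each with 0 lower, but with quantile normalization Cox4i1, Cox5a, Cox6a1 and Atp5g2 turned in sign. Among called members whose groups did not overlap, the peripheral stalk subunit Atp5h (0.66, limma adjusted p = 4.5e-09), Uqcr11 (0.59, adjusted p = 1e-07) and the ubiquinone-binding subunit Uqcrq (0.54, adjusted p = 5.5e-05) rose most. Cox4i2 (-0.75, limma adjusted p = 3.3e-06) and the assembly factor Ndufaf2 (-0.27, adjusted p = 0.0087) fell. The count in 85% O2 changed with the scaling too: 22 higher and 14 lower with quantile normalization and 15 higher and 5 lower with centring on each array's median.

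The scaling also moved the balance in 85% O2 against 21% O2 with scrambled antimiR, without turning it. Quantile normalization gave 43 members higher and 8 lower at P5 and 61 and 13 at P14, in place of 58 and 10 and 80 and 5. Centring on the median gave 100 higher and 3 lower at P5 and 93 and 2 at P14, so the larger count at P14 did not hold there, while the members' median was 0.40 at P5 and 0.69 at P14. That centring moved the median of all probes to 0.18 at P5 and 0.23 at P14, from -0.03 and -0.05. Cox6b2, Cox4i2, Ndufb7, Atp5k (whose probes are placed on another chromosome) and, at P14, Ndufaf4 kept their P14 direction and call under each scaling.

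Genes that work with the chain, taken from lists made for this tissue, were described in the same comparison, where all probes had 20.3% higher and 23.4% lower at P5 and 29.0% and 31.6% at P14. Each gene stood on its brightest probe, and the bright probes had larger shares called higher, as given above. Of 13 enzymes of the tricarboxylic acid cycle, 9 were raised and 0 lowered in 85% O2 at P5, against 3 and 2 at P14, the latter no more than the share over all probes. Of 15 mitochondrial carriers, import proteins and porins, 6 were raised and 0 lowered at P5, against 11 and 1 at P14, with medians of 0.19 and 0.48. Timm50 and Timm17a, parts of the inner membrane translocase, rose by 0.41 and 0.43 at P5 and by 0.72 and 0.65 at P14. Of 16 complex IV assembly genes, 8 were raised and 1 lowered at P5, against 7 and 2 at P14, and the copper chaperone Sco2 rose by 0.30 and 0.64. Of 13 assembly genes of the other complexes, 6 were raised and 0 lowered at P5, against 6 and 1 at P14. Of 13 electron carrier genes, 5 were raised and 0 lowered at P5, against 5 and 1 at P14, among them Cyc1, the cytochrome c1 subunit of complex III whose symbol lies outside the naming rule (0.45 and 0.73). At P14 the shares raised in both assembly lists and in the electron carriers were near that of the bright probes.

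Of 15 regulators of mitochondrial biogenesis, 2 were raised and 1 lowered at P5, against 3 and 4 at P14, shares below those over all probes (20.3% and 23.4%, then 29.0% and 31.6%). Within them the coactivator Ppargc1a rose by 1.08 and 1.16 (limma adjusted p = 8.4e-05 and 3.2e-05), and Gabpa, a subunit of the ETS factor NRF-2, was lower at both ages (-0.50 and -0.99, adjusted p = 9.5e-05 and 7.9e-07). Of 11 fatty acid oxidation genes, 2 were higher and 0 lower at either age, also no more than the share over all probes.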

How the data were processed

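Whole-lung RNA of mouse pups was read on 32 Agilent arrays of 1 colour. The deposited intensity values are Agilent Feature Extraction output (version 10.7.3.1 per the submitters' processing notes), background-subtracted by that software. The deposited log2 values of the authors' matrix, quantile-normalized per the methods, served as an alternative.

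Processed signals were log2-transformed, scaled to each array's 75th percentile over non-control probes, and averaged over spots of a probe. Outlier spots (0.211% of non-control spots) were left out, and no spot was saturated. Probes that all 4 arrays of some group at the ages compared read well above background were fitted with limma 3.58.1 (R 4.3.3, the data.table package, version 1.17.8), 4 groups per age, or all 8 groups for comparisons of ages. Adjusted p-values cover all probes tested, and calls are at 0.05. The 75th percentile lay between log2 9.01 and 9.99, and 33606 to 40774 of the 55681 probes were well above background on an array, and the number of arrays limits the precision. The scripts were tested on simulated data.

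The members and gene lists were chosen with earlier results of these data known. Genes named were a set picked by role in each complex, plus up to 3 called members in each direction with the largest change and no overlap, or, with no call, the 3 smallest p. A gene stood on its brightest probe. Part of the set picked by role is not reported here. From the other lists, up to 3 called genes with the largest change were named. Alternatives were another background correction, quantile or median scaling, other filters, the methods' t-test (Welch), array weights, array brightness as a covariate, the replicate number as a block, 1 probe per gene, the authors' values, and arrays left out.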

Additional observations from a re-analysis of the deposited data

Results flagged for a closer look

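Single arrays far from the other 3 of their group were looked for in 232 group values of the set medians, marker lists and named genes. Chance alone gives such a flag in about 5% of groups, and 15 of the 232 were flagged. Among the set medians (relative log2, centred), the complex I assembly factors were at 0.0645 on P5 21% O2 antimiR-34a replicate 3, complex II at -0.293 on P5 21% O2 scrambled replicate 3 and the complex IV tissue isoforms at 0.147 on P5 85% O2 antimiR-34a replicate 1. Among the cell type lists, the white fat cell markers were at 0.139 on P14 21% O2 scrambled replicate 1 and at -2.49 on P14 85% O2 antimiR-34a replicate 4, where the brown fat cell markers were at -3.45.

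Among the named genes (relative log2 level), Ndufaf4 was at 1.57 on P5 21% O2 scrambled replicate 3. On P5 85% O2 scrambled replicate 1, Atp5c1 was at 4.94 and Ndufs8 at 1.94. Ndufs8 was at 1.78 on P5 85% O2 antimiR-34a replicate 3, and Cox4i2 at 1.87 on P5 85% O2 antimiR-34a replicate 1. Ndufab1 was at 0.46 on P14 85% O2 scrambled replicate 2 and at -0.038 on P14 21% O2 antimiR-34a replicate 1. Ndufb7 was at 5.73 on P14 85% O2 antimiR-34a replicate 4, and Ndufa4l2 at 3.40 on P14 21% O2 scrambled replicate 4.

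The oxygen effect (85% against 21% O2, scrambled antimiR) at P14 differed from that at P5 for 63 member probes by the interaction test (limma). The difference in log2 fold change, P14 minus P5, was positive for, among others, Uqcr11 (0.38), Ndufab1 (0.60), Cox6b2 (0.35), Ndufb7 (0.73), Ndufb8 (0.35), Ndufaf4 (0.84), Sdhc (0.34), Cox4i1 (0.43), Cox5a (0.37), Cox5b (0.42), Cox6a1 (0.32, but -0.059 with quantile normalization), Cox7a2 (0.41), Cox8a (0.45), Atp5g1 (0.60), Atp5g2 (0.45), Atp5g3 (0.31) and Atp5k (0.71). It was negative for, among others, Cox4i2 (-0.80), Ndufa4l2 (-0.40), Atp5c1 (-0.46) and Atp5c1-ps (-0.79).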

How the results depend on the processing

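The counts of members called (68 in 85% against 21% O2 at P5, 85 at P14, 77 and 91 with antimiR-34a, 54 and 62 between ages in 21% and 85% O2, and 63 for the oxygen effect between ages) stayed within 1.5 times under most settings. Exceptions were the ages in 85% O2, at 36 with quantile normalization, 36 with the authors' values (21 higher, 15 lower) and 20 with median centring; 85% against 21% O2 at P5, at 103 with median centring; the oxygen effect between ages, at 35 with median centring (33 higher, 2 lower); and the antimiR in 21% O2 at P14, where array weights called 6, all lower. The balance also moved for the oxygen effect between ages (35 higher and 9 lower with quantile normalization, 35 and 10 with the authors' values, in place of 57 and 6), for 85% against 21% O2 at P14 with the authors' values (61 and 13) and for the ages in 21% O2 (18 and 39 with quantile normalization and the authors' values, 4 and 39 with median centring). The causes were not tested.

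Signs turned for the ages in 85% O2 with quantile normalization (Cox4i1 -0.11, Cox5a -0.0021, Cox6a1 -0.21, Atp5g2 -0.0005) and with the authors' values (Cox4i1 -0.11, Cox5a -0.0047, Cox6a1 -0.21, Atp5g2 -0.0024), for Cox6a1 in the oxygen effect between ages (-0.059 and -0.058), and with median centring for 85% against 21% O2 with antimiR-34a (Atp5g2 0.052 at P5, Ndufa4l2 0.22 and Uqcrfs1 0.53 at P14).

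Leaving out each array in turn gave 53 to 74 called members for 85% against 21% O2 at P5, 78 to 88 at P14, 64 to 77 and 86 to 95 with antimiR-34a, 47 to 52 and 53 to 63 between ages in 21% and 85% O2, 57 to 63 for the oxygen effect between ages, and 0 for each antimiR comparison. The replicate numbers did not pair the arrays: same-numbered arrays' deviations had median correlations of 0.01 at P5 and 0.04 at P14, and the replicate block gave 62 and 88 calls at P5 and P14. Slide as a block was not run, since slides hold 1 age and oxygen level each, and the antimiR comparisons are already within a slide, where antimiR and row cannot be told apart. Signal over background kept Cox7b2 and Cox8c untested, and the dimmer probe of Ndufaf5 was not above background on every array.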

Other observations

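Of 14 genes of glycolysis and glucose uptake, 9 were higher and 0 lower in 85% O2 than in 21% O2 at P5, against 11 and 0 at P14, with median log2 fold changes of 0.29 and 0.69. Over all probes 20.3% were higher and 23.4% lower at P5, and 29.0% and 31.6% at P14. The glucose transporter Slc2a1 rose by 0.75 and 1.20, hexokinase Hk2 by 0.87 and 1.63 and the aldolase Aldoa by 0.58 and 0.83 (limma, scrambled antimiR, 4 arrays against 4). The list was made with earlier results of these data known.

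Outside the naming rule, Suclg1, of succinyl-CoA ligase, rose by 0.86 at P5 and was lower at P14 (-0.69; limma adjusted p = 0.0056 and 0.0029). The ATP synthase assembly factor Atpaf1 rose by 1.27 at P14 (limma adjusted p = 0.014).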
